A study of Mus musculus with 2 samples.

Results

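The cells described here are brain macrophages of the library labelled IRF8KO that carried a strong set of interferon-induced transcripts, called interferon-signature cells below. They were chosen by measured values: a cell entered when at least 1 UMI (a tag that marks 1 captured RNA molecule) was read from 4 or more of 8 interferon-induced genes (Ifit1, Ifit2, Ifit3, Ifit3b, Isg15, Rsad2, Oasl2 and Irf7). Of 5007 cells of this library that passed the filters and were not neutrophil-like, 311 met the rule, which is 6.21% (exact binomial interval 5.56 to 6.92), and both libraries together held 8807 deposited barcodes. The reference cells were the 4204 cells of the same library with 0 or 1 of the 8 genes, and 492 cells with 2 or 3 lay between.

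Microglia, the resident macrophages of the brain parenchyma, were sorted from untreated female C57BL/6 mice aged 3 months and profiled by droplet single-cell RNA sequencing. One group was wild type (WT) and the other was titled IRF8KO, for loss of IRF8, a transcription factor of the myeloid lineage. Each group was 1 library from a pool of 3 mice, and no label ties a cell to a mouse, so no value below has a replicate, cells are not replicates, and no test between groups was possible. For the IRF8KO sample the labels disagree, as its genotype field gives WT, and the targeting allele is not given in the sources used here.

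Type I interferons bind the receptor pair IFNAR1 and IFNAR2, which acts through the kinases JAK1 and TYK2 on STAT proteins. With IRF9, these form a complex that binds a promoter element, the interferon-stimulated response element (ISRE), and turns on a large set of genes whose products block viral replication, present antigen and recruit other cells. Interferon gamma uses another receptor and acts on STAT proteins at the gamma-activated site (GAS). In brain, a small share of microglia with such transcripts is known from development, ageing and disease.

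Promoters of these genes are shown first, because the ISRE is the element through which this pathway is known to act. An ISRE was searched as GAAANNGAAA on both strands, from 250 bases before to 50 after each RefSeq start (GRCm38.p6), and a match is a description of letters, not of binding. Of the 8 chosen genes, 5 had a match. Windows of 40 bases around a match are given 5′ to 3′ along the gene's strand, with the match in capitals, for chosen genes and for genes outside the 8 that stood highest in interferon-signature cells.
Ifit1, chr19:34640789-34640828, plus strand: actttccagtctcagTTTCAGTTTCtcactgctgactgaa
Ifit3, chr19:34583392-34583431, plus strand: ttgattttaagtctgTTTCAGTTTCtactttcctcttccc
Rsad2, chr12:26456548-26456587, minus strand: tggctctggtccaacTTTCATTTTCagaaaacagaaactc
Cxcl10, chr5:92349078-92349117, minus strand: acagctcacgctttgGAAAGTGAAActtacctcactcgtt
Ifi206, chr1:173491334-173491373, minus strand: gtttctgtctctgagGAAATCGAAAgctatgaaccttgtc
Ifi213, chr1:173599321-173599360, minus strand: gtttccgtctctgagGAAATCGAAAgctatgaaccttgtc
Slfn5, chr11:82951932-82951971, plus strand: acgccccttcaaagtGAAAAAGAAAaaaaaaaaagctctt
The Ifit3b window (chr19:34607788-34607827) was identical to that of Ifit3. How reads that map to both of these neighbouring family members were counted is not given in the sources used here, so their separate counts are uncertain.

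Isg15, whose product is a ubiquitin-like protein attached to other proteins, is shown over all 250 bases before its start (chr4:156200819-156201068, minus strand), because it held 3 overlapping ISRE matches.
Isg15: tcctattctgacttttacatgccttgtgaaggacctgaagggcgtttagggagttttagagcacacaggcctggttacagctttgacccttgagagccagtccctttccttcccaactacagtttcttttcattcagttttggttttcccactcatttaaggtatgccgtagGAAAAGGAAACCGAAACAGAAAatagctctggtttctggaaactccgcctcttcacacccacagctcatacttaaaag
No match lay in this window for Ifit2, Oasl2, Irf7, Ccl12, Ifi47 or Ifi209, and both matches of Ifitm3 lay after its start. Usp18 and Zbp1 had no entry in the promoter table.

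The rule was applied to counts as deposited, and its outcome can be read in the plot of cells by number of the 8 genes. In the library labelled IRF8KO, 3348 cells had none of the 8 genes, 856 had 1, 329 had 2, 163 had 3, 102 had 4, 75 had 5, 56 had 6, 39 had 7 and 39 had all 8. The counts went down at each step up to 7 genes, with no gap at the threshold, and the rule is a limit set on this range. Just inside and just outside it stood the 102 cells with 4 genes and the 163 with 3. Under the same rule, 19 of 3304 WT cells qualified, 0.575% (0.347 to 0.897).

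**Figure D1:**
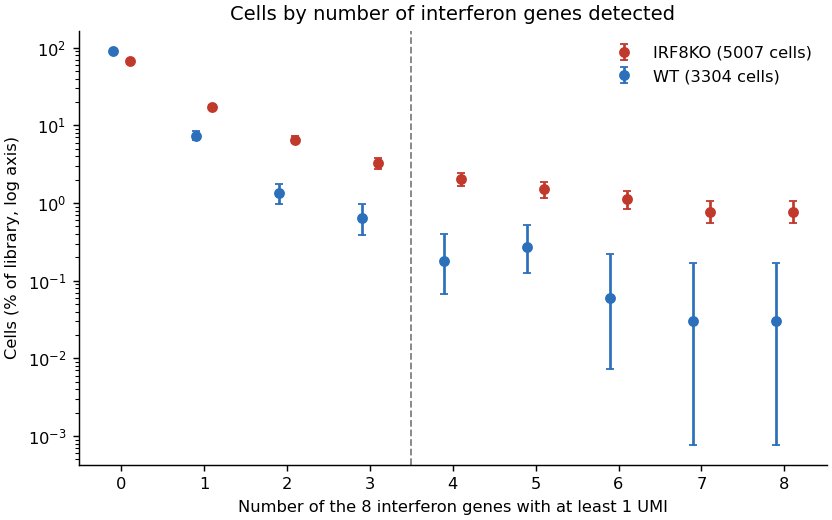
Share of cells (percent of each library's kept non-neutrophil cells, log axis) by the number of the 8 interferon-induced genes with at least 1 UMI, with exact 95% binomial intervals; the dashed line marks the rule. The IRF8KO share fell smoothly from 3348 of 5007 cells with none to 39 with all 8, and lay above the WT share at every number from 1 to 8.

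Deeper cells met the rule more often. Interferon-signature cells had a median of 3904 UMIs and 1640 genes, against 2859 UMIs and 1356 genes in reference cells, and 22.8% of them were among the 5% of cells with most UMIs, against 2.55% of reference cells. Of cells with 2000 to 4000 UMIs, 4.41% qualified (148 of 3353), and of cells with at least 16000 UMIs, 43.1% did (31 of 72). The corresponding WT shares were 0.155% (3 of 1935) and 5.21% (10 of 192), so the IRF8KO share was the higher in each of these depth ranges. With every cell thinned to 2000 UMIs before the rule, 161 of 4509 IRF8KO cells (3.57%, 3.05 to 4.15), 5 of 3019 WT cells (0.166%, 0.0538 to 0.386) and 0 of 97 neutrophil-like cells qualified; the last allows a share of up to 3.09%. Genotype and library cannot be told apart.

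In the rest, every cell was thinned to 2000 UMIs so that groups had equal depth, which left 302 interferon-signature and 3747 reference cells. The 9 and 457 shallower cells were left out. Levels are counts per 1e+06 UMIs (CPM) over the summed cells of a group. Of the 8 chosen genes, whose difference is fixed by the rule, Ifit3 stood at 1025 CPM in interferon-signature and 16.9 CPM in reference cells. Ifit1 stood at 634 and 7.61 CPM, Isg15 at 584 and 10.0 CPM, Oasl2 at 497 and 16.8 CPM, and Ifit2 at 344 and 2.54 CPM. Rsad2, whose product viperin makes a chain-terminating nucleotide, stood at 321 and 2.94 CPM, Ifit3b at 293 and 2.67 CPM, and Irf7, which amplifies interferon production, at 238 and 11.7 CPM. In neutrophil-like cells (97 thinned cells; median depth before thinning 7057.5 UMIs), a type not chosen for these transcripts, the 8 genes ranged from 0 to 36.1 CPM, the highest being Irf7.

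The cells were macrophages by their transcripts. Genes shared by macrophages (12 summed, 11 of them compared, among them Fcer1g, Ctss and Laptm5) took 1.13% of UMIs in interferon-signature and 1.07% in reference cells. All 11 T and NK cell markers, all 5 neuron markers and all 4 haemoglobin genes were at 0 UMIs in the 302 cells, of 604000 UMIs in all. The monocyte list held 14 UMIs, at 23.2 CPM against 10.9 CPM in reference cells, a log2 ratio of 1.08 (0.15 to 1.91). Of its 9 genes, 6 were at 0, Ly6c2 and Plac8 among them. Ccr2 held 2 UMIs in cells with 6 to 8 of the chosen genes and 6 in cells with 4 or 5. Endothelial markers held 34 UMIs, at 56.3 against 27.4 CPM, a log2 ratio of 1.04 (0.47 to 1.57). Of the 7 markers, 4 were at 0, Cldn5 and Cdh5 among them, and the UMIs came from Pecam1, Flt1 and Kdr. The neutrophil, B cell, plasmacytoid and conventional dendritic cell, astrocyte and oligodendrocyte lists each held 7 to 34 UMIs, and the 34 plasmacytoid UMIs were all from Cox6a2. The part of these other cell types in the results was not tested.

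Across 3202 genes outside the 8 with a mean of at least 50 CPM over both groups, 78 (2.44%) were at least 2-fold higher in interferon-signature cells and 0 (0%) were at least 2-fold lower. The counting interval of the ratio lay above 0 on the log2 scale for all 78, and these intervals cover counting error only. The median log2 ratio of all compared genes was -0.02, and 5% to 95% of genes lay between -0.39 and 0.48. Of the 78, 39 were more than 4-fold and 12 more than 8-fold higher. The minimum favours higher genes: 50 of the 78 were below 50 CPM in reference cells and passed only through the interferon-signature cells, where they had to be higher; with the minimum set on reference cells alone, an alternative added after seeing the data, 28 were higher and 2 lower. With the rule applied to thinned counts, 123 genes were higher and 12 lower, and without thinning 48 were higher and 0 lower.

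**Figure D2:**
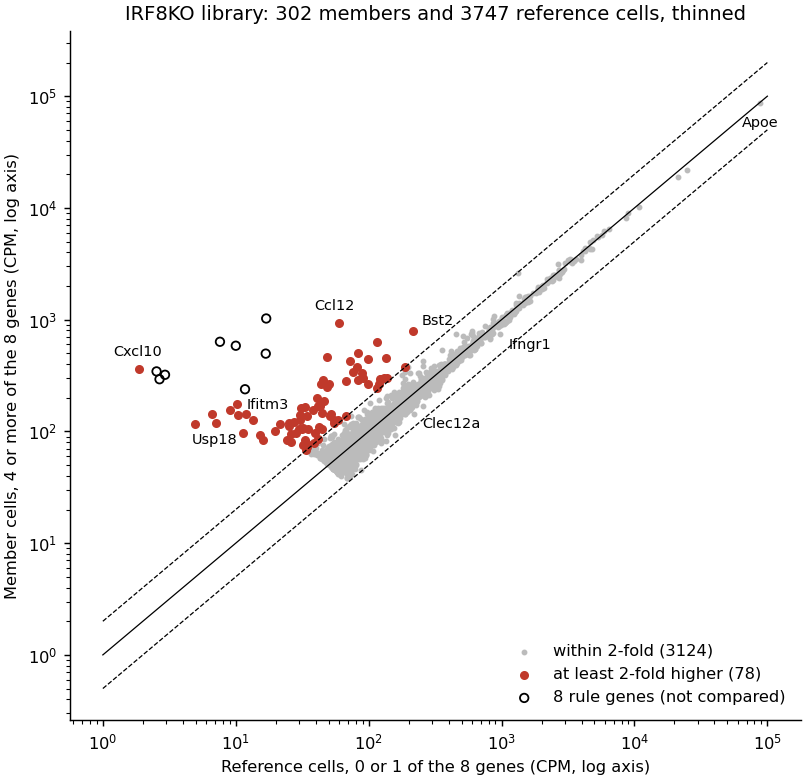
Level of each of 3202 compared genes in 3747 reference cells (horizontal, CPM, log axis) and 302 interferon-signature cells (vertical, CPM, log axis), all IRF8KO and thinned to 2000 UMIs; the solid line marks equality and dashed lines a 2-fold difference. The 78 genes at least 2-fold higher (red) form an arm above the diagonal with the 8 chosen genes (open circles), while no compared gene lies below the lower dashed line.

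Of the 78 higher genes, 49 were on lists of the interferon response. Most of the other compared genes stayed near equality, as the plot of the lists shows. Lists are described by their counts and medians, set beside the 2.44% of all compared genes that were higher and the median of -0.02. Because the minimum favours higher genes, each list's count with the minimum set on reference cells alone is also given where the number of higher genes differs.

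**Figure D3:**
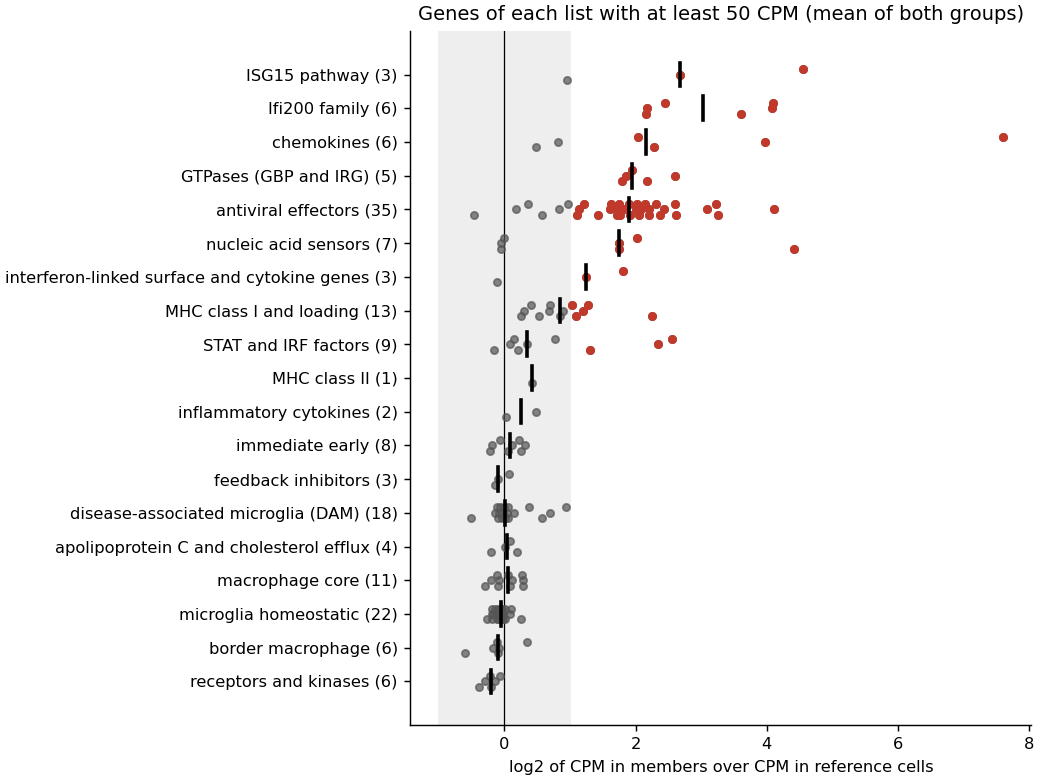
The log2 ratio of CPM in interferon-signature over reference cells for each compared gene of 19 lists (number compared in parentheses); red points are at least 2-fold higher, black bars are list medians and the grey band spans less than 2-fold. Antiviral, Ifi200, GTPase and chemokine genes lie to the right, and homeostatic, border macrophage and receptor genes lie within the band.

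The ligands of the pathway were almost undetected. Of 21 interferon genes in the table, 2 UMIs, both of Ifnb1, were read in the 311 interferon-signature cells before thinning, and 4 UMIs in all 5007 IRF8KO cells. The WT library held 3 UMIs, all of Ifnb1, in 3304 cells. At this depth, production of interferon by these cells was not detectable beyond a few transcripts.

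Receptors and kinases were not higher. None of the 6 compared genes passed 2-fold, all 6 had a ratio below 0, and their median was -0.21. Ifngr1, a subunit of the interferon gamma receptor, was at 742 CPM in interferon-signature and 969 CPM in reference cells, a log2 ratio of -0.39 (-0.53 to -0.25). Ifnar1 was at 113 and 138 CPM and Ifnar2 at 200.3 and 230 CPM, with intervals (-0.67 to 0.06 and -0.48 to 0.07) that include 0, as did those of Il10rb (-0.22), Ifngr2 (-0.13) and Jak1 (-0.07). Tyk2 and Jak2 were under the minimum.

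Among 9 compared STAT and IRF factors, 3 were higher, and 1 of 7 with the minimum on reference cells. Stat2 stood at 101 CPM in interferon-signature and 19.9 CPM in reference cells, a log2 ratio of 2.34 (1.89 to 2.78). Irf1, a factor that both interferon types induce, was at 97.7 and 39.5 CPM (1.31, 0.88 to 1.71). Irf9, the partner of STAT proteins in the complex above, did not pass 2-fold, at 94.4 and 55.0 CPM (0.78, 0.35 to 1.18). Irf2, Stat3, Irf5 and Irf3 lay between -0.16 and 0.35, and Batf2 was under the minimum.

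Irf8 itself was at 667 CPM in interferon-signature and 629 CPM in reference cells, a ratio of 0.09 (-0.06 to 0.23), and at 726 CPM in WT reference cells. Transcript counts near a gene's 3′ end do not check a deletion elsewhere in the gene, so these counts do not check the label. Sall1, a microglial identity factor, was at 1.66 CPM in interferon-signature cells, 3.07 CPM in IRF8KO reference cells and 475 CPM in WT reference cells, so the interferon-signature cells had the low Sall1 of their library.

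Of 7 compared sensors of viral nucleic acid 4 were higher, but all 4 passed the minimum only through the interferon-signature cells, and with the minimum on reference cells 0 of 3 were higher. Zbp1, which senses left-handed nucleic acid and can trigger cell death, stood at 142 CPM in interferon-signature cells and 6.67 CPM in reference cells (4.42, 3.90 to 4.95). Ddx58, which encodes RIG-I, was at 156 and 38.2 CPM, Ifih1, which encodes MDA5, at 108 and 31.9 CPM, and Tlr3 at 106 and 31.5 CPM. Aim2, Tlr7 and Tmem173, which encodes STING, lay between -0.05 and 0.00.

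Of the ISG15 pathway, 2 of 3 compared genes were higher; each passed the minimum only through the interferon-signature cells, and 0 were compared with the minimum on reference cells. Usp18, which removes ISG15 from proteins and also restrains the type I receptor, stood at 116 CPM in interferon-signature cells and 4.94 CPM in reference cells (4.55, 3.96 to 5.17). Herc6, the ISG15 ligase of mice, was at 291 and 45.6 CPM (2.67, 2.40 to 2.94). Uba7, the activating enzyme, was just short of 2-fold at 76.2 and 39.1 CPM (0.96). Ube2l6 and Trim25 were under the minimum.

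Antiviral effectors formed the largest group: 29 of 35 compared genes were higher, with a median of 1.90, and 20 more were under the minimum. With the minimum on reference cells, 11 of 17 were higher, so 18 of the 35 had entered through the interferon-signature cells alone. Summed over all 55 in the table, they took 1.13% of UMIs in interferon-signature and 0.398% in reference cells, a log2 ratio of 1.50 (1.47 to 1.54). Ifitm3, whose product blocks virus entry at membranes, was at 177 and 10.3 CPM (4.11, 3.67 to 4.55), while its neighbour family member Ifitm2 was at 214 and 188 CPM (0.18). Slfn5 was at 464 and 48.4 CPM (3.26) and Slfn9 at 96.0 and 11.3 CPM (3.08). Ifitm3 was also abundant in neutrophil-like cells, at 608 CPM.

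Further effectors included some that reference cells also carried at higher levels. The minimum admits those at any ratio and rarer ones only at a high ratio, so level and ratio cannot be related here. Bst2, which encodes the virus-retaining protein tetherin, was at 800 and 215 CPM (1.90), and Ly6e at 2594 and 1327 CPM, just short of 2-fold (0.97, 0.89 to 1.04). Parp14 was at 505 and 83.7 CPM, Rtp4 at 379 and 82.3 CPM, Xaf1 at 268 and 43.6 CPM, and Eif2ak2, which encodes the double-stranded RNA kinase PKR, at a ratio of 2.37. Sp100 (126 and 13.5 CPM), Ly6a (116 and 21.5 CPM) and Rnf213 (164 and 33.0 CPM) complete the effectors among the 25 highest genes. Ifi27 went the other way without passing 2-fold, at 106 and 146 CPM (-0.46).

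Some classical effectors lay under the minimum and yet differed widely. Mx1 transcripts were at 61.3 CPM in interferon-signature and 0.534 CPM in reference cells, Oasl1 at 69.5 and 0.934 CPM, Cmpk2 at 76.2 and 3.60 CPM, and Isg20 at 57.9 and 1.60 CPM. These 4 were chosen after their values were seen and are not among the 78.

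All 6 compared genes of the Ifi200 family, whose products bind DNA and include nuclear sensors, were higher, with a median of 3.03, as were 3 of 3 with the minimum on reference cells. Ifi204 was at 632 and 116 CPM (2.45, 2.27 to 2.63), Ifi207 at 442 and 98.1 CPM (2.17) and Mndal at 339 and 75.7 CPM (2.17). Ifi213 was at 156 and 9.07 CPM (4.10), Ifi206 at 119 and 7.07 CPM (4.08) and Ifi209 at 144 and 11.9 CPM (3.60). These 3 passed the minimum only through the interferon-signature cells, which required a high ratio of them. Their larger ratios than those of the more abundant members are therefore no result. The ratios also depended on the reference: weighted to the clusters of the interferon-signature cells, it gave Ifi206 a ratio of 1.41 and Ifi209 one of 2.33. At 4000 UMIs per cell Ifi206 was at 2.90. The family is a row of near copies in a stretch of chr1 (chr1:173468485-173942491 from the first to the last of these 6), so counts of single members are uncertain; their sum was at 2066 CPM in interferon-signature and 324 CPM in reference cells.

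Guanylate-binding proteins and immunity-related GTPases, which act on the vacuoles of intracellular microbes, were higher in 5 of 5 compared genes, and 11 of 16 were under the minimum. With the minimum on reference cells 1 of 1 was higher (Gbp7), since the other 4 had passed only through the cells in which they were high. Gbp2 was at 92.7 and 15.4 CPM (2.59), Igtp at 122.5 and 27.2 CPM (2.17), Irgm1 at 167 and 43.4 CPM (1.95), Irgm2 at 94.4 and 26.2 CPM (1.85), and Gbp7 at 290 and 83.3 CPM (1.80). Ifi47, a GTPase of the same class that was on no list, was at 141 and 10.4 CPM (3.76, 3.30 to 4.22), and at 2.31 against the cluster-weighted reference. Gm4951, also on no list, was at 268 and 50.4 CPM (2.41), and Trafd1, a regulator of signalling, at 162 and 30.8 CPM (2.40).

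Genes of antigen presentation by MHC class I were higher by a smaller amount. All 13 compared genes had a ratio above 0, their median was 0.85, and 5 were at least 2-fold higher (4 of 11 with the minimum on reference cells). Tap1, the peptide transporter, stood at 119 CPM in interferon-signature cells and 25.1 CPM in reference cells (2.25), the non-classical H2-T23 at 293 and 121 CPM (1.27), and the immunoproteasome subunits Psmb9 and Psmb8 at 126 and 54.8 CPM (1.20) and 247 and 116 CPM (1.09). The classical chains differed less, with H2-K1 at 738 and 457 CPM (0.69), H2-D1 at 788 and 597 CPM (0.40) and B2m at 1627 and 1360 CPM (0.26).

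MHC class II did not shift in a stable direction. Of 8 genes, 1 reached the minimum: Cd74, the invariant chain, was at 94.4 and 70.2 CPM (0.43, 0.01 to 0.82). The list sum was 0.35 on the log2 scale, but it was -0.60 against reference cells weighted to equal depth, -1.50 without the 5% deepest cells and -0.02 without a cluster of 40 cells described below. Among interferon-linked surface genes, 2 of 3 compared were higher (1 of 2 with the minimum on reference cells): the Fc receptors Fcgr4, at 84.4 and 24.2 CPM (1.81), and Fcgr1, at 293 and 123 CPM (1.25). Cd86, a co-stimulatory ligand, was at 94.4 and 102 CPM.

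The chemokines held the highest ratio, and their UMIs came unevenly from cells. Cxcl10, which attracts T and NK cells, stood at 363 CPM in interferon-signature and 1.87 CPM in reference cells, a log2 ratio of 7.60 (6.82 to 8.50). Its 219 UMIs came from 24 of the 302 cells, with 79.9% of them from 10 cells. Ccl12, a monocyte attractant, was at 939 and 59.9 CPM (3.97, 3.79 to 4.15), from 79 of the 302 cells. Ccl4 was at 199 and 41.1 CPM (2.27) and Ccl5 at 189 and 45.9 CPM (2.04), while Ccl3 (0.83) and Cxcl16 (0.48) did not pass 2-fold, so 4 of 6 compared chemokines were higher, and 1 of 2 with the minimum on reference cells. Of the 120 Ccl4 UMIs, 92.5% came from 10 cells and 50 from a single cell. Without that cell, an alternative added after seeing the data, the Ccl4 ratio was 1.50 (1.10 to 1.88), at 116 CPM; the other 3 ratios, each without its own highest cell, moved by less than 1.5 times.

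Interferon-signature cells made up 6.70% of the thinned cells but held 93.6% of the library's Cxcl10 UMIs. For Ccl12 that share was 52.1%, for Ifitm3 47.6%, for Ccl4 26.4% and for Ccl5 19.9%. Cxcl10 was therefore nearly restricted to these cells, while most Ccl4 and Ccl5 came from cells outside them.

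The microglial programme differed little between the groups. Of 22 compared homeostatic genes none passed 2-fold; 17 had a ratio below 0 and 5 above, and their median was -0.06, close to the -0.02 of all genes. The protease inhibitor gene Cst3 was at 18803 and 21384 CPM (-0.19), the receptor Gpr34 at 682 and 820 CPM (-0.27), and the complement gene C1qb at 3172 and 2663 CPM (0.25). The list sum was -0.08 (-0.09 to -0.06), and it was 0.04 with cells thinned to 4000 UMIs.

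Disease-associated and border macrophage genes were also near equality, with 0 of 18 and 0 of 6 compared genes past 2-fold. Apoe, the most abundant transcript of its list, was at 86795 CPM in interferon-signature and 88543 CPM in reference cells (-0.03). Cd72 (79.5 and 41.2 CPM, 0.95), the growth factor Csf1 (62.9 and 38.8 CPM, 0.70) and the oxidase subunit Cybb (384 and 257 CPM, 0.58) were the highest of the disease-associated list, whose median was 0.01. Among border macrophage genes, Ms4a7 was at 752 and 594 CPM (0.34) and the inhibitory lectin Clec12a at 144 and 218 CPM (-0.60). No immediate early gene (8 compared), cell cycle gene (1), feedback inhibitor (3) or inflammatory cytokine (2) passed 2-fold; Socs1, a feedback inhibitor under the minimum, was at 39.7 and 4.80 CPM.

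At the low end no gene reached 2-fold. Pmp22 was lowest at 44.7 and 87.1 CPM (-0.96, -1.58 to -0.41), followed by Usp2 at 92.7 and 159 CPM (-0.78), F630028O10Rik (-0.61), the lectin Clec4a2 (-0.70), Rab6b (-0.86), Clec12a, Bank1 (-0.86), Spsb1 (-0.86), Ube2e3 (-0.85) and Dynlrb1 (-0.71). These were picked as the lowest of 3202 and several did not keep their sign: with another random seed Spsb1 was at 0.02, and at 4000 UMIs per cell Clec12a was at 0.28, F630028O10Rik at 0.11 and Spsb1 at 0.01. At 1000 UMIs Dynlrb1 was at 0.04. All of the 25 highest genes, also picked from these data, stayed at least 2-fold higher in every alternative in which all their ratios were recomputed. Those alternatives used the same library. Genes such as Cxcl10, Usp18 and Zbp1 had passed the minimum only through the interferon-signature cells, so their staying higher is a description. With cells thinned to 4000 UMIs, Ifitm3 was at 2.88, Ifi47 at 2.88, Sp100 at 2.55, Parp14 at 1.98, Gm4951 at 1.79 and Trafd1 at 1.78, each lower than at 2000 UMIs by more than 1.5 times.

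Beyond the 8 chosen genes, the response was graded. The 108 other interferon response genes in the table took 6135 CPM in IRF8KO cells with none of the 8, 7499 CPM with 1, 9275 CPM with 2 and 11019 CPM with 3. They took 12597 CPM in cells with 4, 14824 with 5, 16664 with 6, 24551 with 7 and 31538 with all 8. Levels were thus higher at each further gene, with no step at the threshold and the largest increments between 6 and 8 genes. Neutrophil-like cells stood at 3706 CPM.

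**Figure D4:**
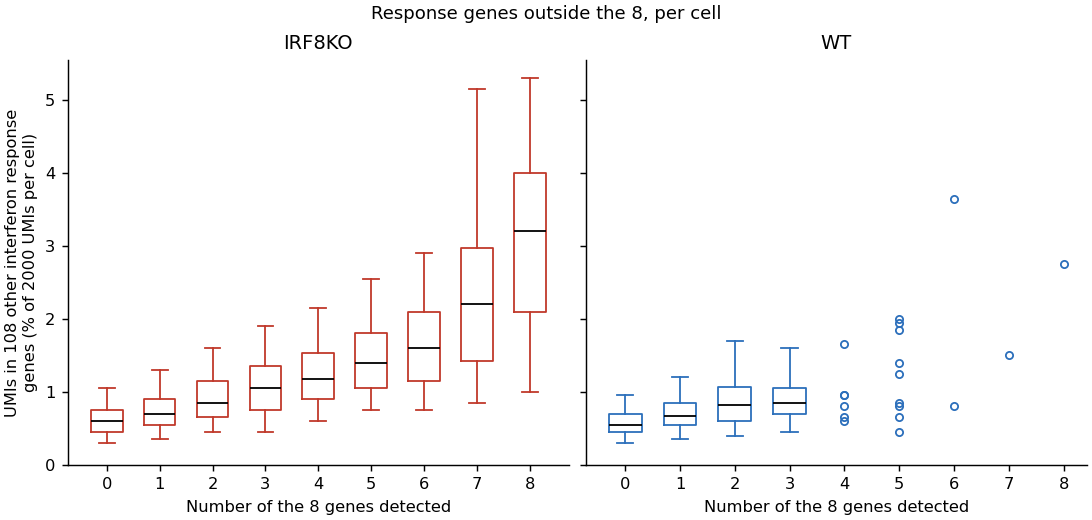
Share of a cell's 2000 thinned UMIs in 108 interferon response genes outside the 8 (vertical, percent) by the number of the 8 genes detected, in IRF8KO (red) and WT (blue); boxes span quartiles with the median, whiskers the 5th to 95th percentile, and WT numbers with fewer than 10 cells are drawn as single cells. The IRF8KO median went from 0.6% of UMIs in cells with none of the 8 to 3.2% in cells with all 8.

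Cell by cell the groups overlapped. The 95th percentile of reference cells was 1.1% of UMIs in the 108 genes, and 211 of 302 interferon-signature cells (69.9%, 64.3 to 75.0) lay above it. The lowest interferon-signature cell had 0.35%, the median 1.5% and the highest 6.4%, while the highest reference cell had 3.75%. Within the 302 cells, UMIs of the 8 genes and of the 108 genes went together (Pearson r 0.82, Spearman rho 0.77), as a description of cells that share a library and a depth.

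Genes differed in where along this range they were high, which the plot of levels by number of chosen genes shows. Cells with 6 to 8 of the genes (133 thinned) and with 4 or 5 (169 thinned) were compared as a description, since the same rule orders them. Cxcl10 had 219 UMIs in the former and 0 in the latter, which is 92.8-fold higher when 3 counts over the group are taken for the 0. That is a log2 ratio of 6.54, with a lower interval bound of 6.23. Ccl12 was at 2030 CPM in cells with 6 to 8 and 79.9 CPM in cells with 4 or 5, against 79.3 CPM with 2 or 3 and 59.9 CPM in reference cells. Ccl12 was thus near its reference level until the last step.

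Ccl4 (402 and 38.5 CPM in cells with 6 to 8 and with 4 or 5), Iigp1 (162 and 11.8 CPM), Gbp3 (71.4 and 2.96 CPM), Isg20 (113 and 14.8 CPM) and Socs1 (78.9 and 8.88 CPM) were also highest in the last class. Without the single cell that held 50 of its UMIs, Ccl4 was at 216 CPM in cells with 6 to 8 genes. Cxcl9, an interferon gamma target, had 48 UMIs with 6 to 8 genes and 0 with 4 or 5, and those 48 came from 2 cells. Usp18 was intermediate, at 4.94, 22.8, 53.3 and 195 CPM from reference cells to cells with 6 to 8 genes.

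Other genes were already well above reference cells with 2 or 3 of the genes. Rtp4, a chaperone for receptors, was at 82.3 CPM in reference cells, 285 CPM with 2 or 3 genes, 328 CPM with 4 or 5 and 444 CPM with 6 to 8. Its log2 ratio between the top classes was 0.43 (0.05 to 0.82), so it was still higher in the last class. Oas2, a synthetase that activates RNase L, was at 11.9, 40.2, 62.1 and 60.2 CPM, and Siglec1, a sialic acid receptor, at 17.1, 39.1, 53.3 and 48.9 CPM. For Oas2, Oas3 and Siglec1 the interval of the log2 ratio between the top classes included 0 (-0.05, -1.08 to 0.96; 0.19, -0.81 to 1.19; -0.12, -1.27 to 0.99). Irf8 was at 629, 650.0, 604 and 748 CPM, with a log2 ratio between the top classes of 0.31 (0.02 to 0.60).

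**Figure D5:**
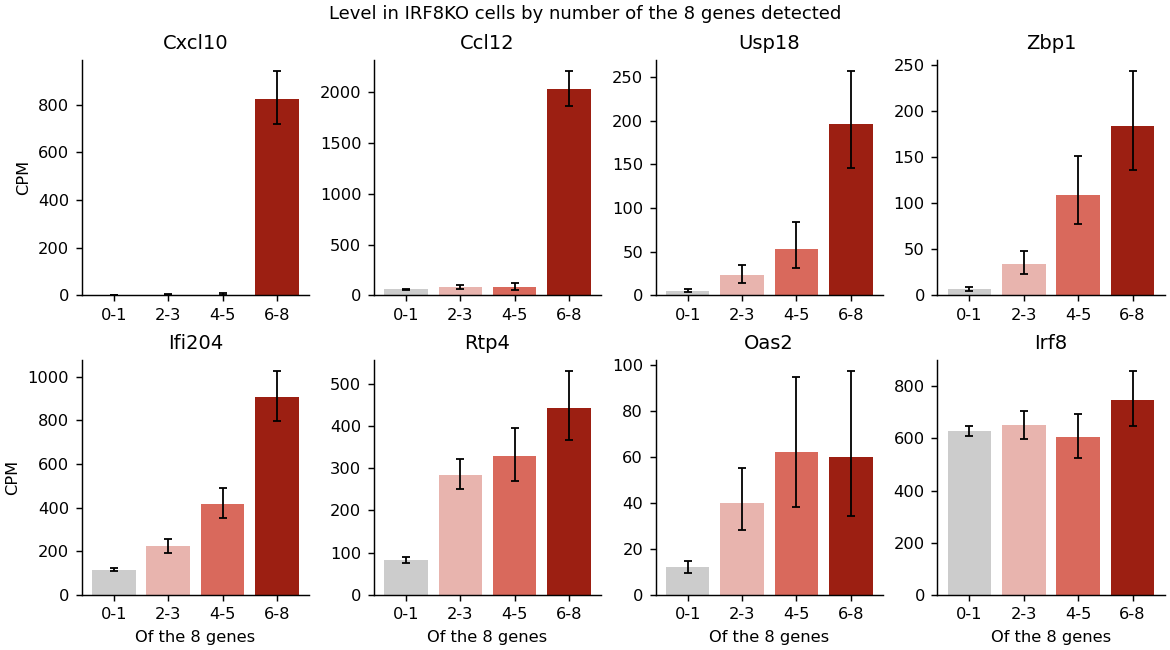
Level (CPM, linear axis from 0) of 8 genes in thinned IRF8KO cells with 0 or 1, 2 or 3, 4 or 5, and 6 to 8 of the chosen genes; error bars are exact 95% Poisson intervals for counting error. Cxcl10 and Ccl12 are high only in the last class, Usp18, Zbp1 and Ifi204 increase by class, and Rtp4 and Oas2 are already high with 2 to 5 genes. Irf8 lies between 604 and 748 CPM in all classes.

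Most UMIs of Cxcl10, Ccl12 and Ccl4 in interferon-signature cells came from a small cluster. IRF8KO cells were clustered on variable genes without the 8 chosen genes and without all interferon lists, which gave 7 clusters. Genes on no list were not removed, among them Ifit1bl1 and higher genes such as Ifi47 and Gm4951. Their part in the clusters was not tested. Interferon-signature cells were 3.30% of a cluster of 2033 cells, 4.41% of one of 2017 and 13.5% of one of 805, whose cells were deeper (median 6076 UMIs). They were 9 of a cluster of 65 cells (13.8%, 6.53 to 24.7), whose leading genes included H2-Eb1, Ccr2, H2-Aa and Cd74. The part of these 9 cells in the results was not tested. In a cluster of 40 cells, interferon-signature cells were 36 (90%, 76.3 to 97.2). Its leading genes over the whole table included Cxcl10, Cd40, Slamf7, Ifit1bl1 and Ifi205. Being defined on the same cells, that cluster is a description and stays unnamed.

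Those 36 cells are 11.6% of the interferon-signature cells. Before thinning they held 560 of 624 Cxcl10 UMIs (89.7%) and 55.9% of Ccl12 UMIs of all interferon-signature cells, and a further 34.7% of Ccl12 UMIs lay in the cluster of 805 cells. They held 69.0% of 365 Ccl4 UMIs and 40.9% of 252 Cxcl9 UMIs, the latter gene being read in 3 cells in all. The other 59.1% of Cxcl9 UMIs came from 1 cell of the cluster of 65 cells. Of the 36 cells, 32 had 6 to 8 of the chosen genes. Without the cluster, an alternative added after seeing the data, the Cxcl10 ratio was 3.58 in place of 7.60, Ccl12 2.19 in place of 3.97, Gbp2 1.62 in place of 2.59 and Ifitm3 3.47 in place of 4.11. Zbp1 (4.18), Ifi206 (3.91), Usp18 (4.09) and Rtp4 (2.12) moved by less than 1.5 times there. With the reference instead weighted to the clusters, where this cluster's part rests on 3 reference cells before thinning, Ifi206 was at 1.41, Gbp2 at 1.48, Trafd1 at 1.70, Ifi47 at 2.31, Ifi209 at 2.33 and Ccl12 at 3.32. Without the cluster of 40 cells, 53 genes were at least 2-fold higher, all of them among the 78. Endothelial markers went from a sum of 1.04 to 0.37 when that cluster was left out.

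The level of the response genes in interferon-signature cells differed among the 3 large clusters. In the cluster of 2033 cells the 108 response genes took 18400 CPM in interferon-signature and 6435 CPM in reference cells, in that of 2017 cells 16455 and 6353 CPM, and in that of 805 cells 12367 and 6626 CPM. The level in interferon-signature cells was thus lowest in the cluster of 805 cells, the deepest of the 3 (median 6076 UMIs against 2480 and 3055). Its counting interval (11905 to 12843 CPM) did not overlap that of the cluster of 2033 (17640 to 19184 CPM). The rule was applied before thinning, so deeper cells could meet it at a lower level. These intervals do not cover that, and the part of depth was not tested. The cluster of 11 cells led by cell cycle genes held none.

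Many of the genes are neighbours. Of the 86 higher and chosen genes, 39 lay in 13 runs in which each was within 250 kb of the next (GENCODE M21, GRCm38). The runs included 4 Ifit genes on chr19 (chr19:34550694-34650009), 4 Slfn genes on chr11 (chr11:82951349-83070678), 5 Trim genes with Trim30a on chr7 (chr7:104244457-104507849), Parp14 with Dtx3l and Parp9 on chr16, and Psmb9, Tap1 and Psmb8 within the MHC on chr17 (chr17:34181987-34201454). Several runs are families of similar sequence, for which counts of single genes are uncertain.

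The ISRE was also more frequent among the higher genes outside the 8. Of 64 of the 78 with a promoter entry, 30 had a match (46.9%), against 99 of 2485 compared genes within 2-fold (3.98%) and 3.99% of all 27025 genes in the table. The GAS, searched as TTCNNNGAA, was in 11 of the 64 (17.2%), 7.48% of genes within 2-fold and 9.55% of all genes. Of 1210 ISRE matches in the table, 24 shared bases with a GAS match. The remaining genes with an entry had no ISRE match in this window. These shares describe a list taken from the same data, and 50 of the 78 had passed the minimum only through the interferon-signature cells. Near copies such as Ifi206 and Ifi213 were counted as separate genes.

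The 19 WT cells that met the rule differed in depth, with a median of 20879 UMIs against 3183.5 in WT reference cells, and are few. After thinning, their 108 response genes took 13421 CPM, against 5921 CPM in WT reference cells and 17851 CPM in the IRF8KO interferon-signature cells. Ifi47, Oas2 and Oas3 had 0 UMIs in the 19 cells, which allows up to 78.9 CPM, and 0 in 2935 WT reference cells. The Ifi200 sum was at 395 CPM in the 19 WT cells and 2066 CPM in the IRF8KO cells, and Ifi207 at 52.6 and 442 CPM. Ccl12 was at 1289 CPM in the 19 WT cells and 939 CPM in the IRF8KO cells, while Cxcl10 had 0 UMIs in the WT cells. With 1 library each, and so few WT cells, these are levels side by side and no comparison of genotypes.

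Totals were 18706147 UMIs in 3504 WT barcodes and 19998075 UMIs in 5303 IRF8KO barcodes, of which 3304 and 5105 passed the filters. The libraries shared 5 barcodes. Of the barcodes left out, 0 had 4 or more of the 8 genes. A doublet caller marked 3 of 5105 IRF8KO cells and 0 WT cells, too few for a working call, so no cell was removed; the median doublet score was 0.100 in both interferon-signature and reference cells, and without the cells of highest score 78 genes were again higher.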

How the data were processed

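Sorted mouse microglia were measured in 2 libraries, 1 per group, each a pool of 3 mice. The deposited values are UMI counts per gene and barcode; per the submitters' processing notes they were made with Cell Ranger 3.1 on mm10, which matches software version 3.1.0 in the file headers. The labels' protocols also name a full-length low-input kit, but the counts have droplet form. For strand and multi-mapped reads, settings were not given in the sources used here.

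Barcodes were kept with at least 1000 UMIs, 500 genes and at most 10% mitochondrial UMIs, and cells with 2% or more of UMIs in 6 neutrophil genes (Camp, Ngp, S100a8, S100a9, Lcn2, Ltf) were called neutrophil-like. Cells were thinned at random to 2000 UMIs, and UMIs were summed per group and scaled to CPM. A gene was compared at a mean of at least 50 CPM and called at a 2-fold difference; 1 library per group allows no test and no p-value. Intervals are exact 95% intervals (Poisson for CPM, conditional binomial for ratios, Clopper-Pearson for shares) and cover counting error only, since a cell is no replicate. A count of 0 was set to 3 counts over the group. The members, lists and alternatives were chosen with earlier results of these data known. Named genes are the 25 highest and 10 lowest ratios by the interval bound nearest 0, the 4 largest of each list, all receptors, kinases, STAT and IRF genes, and the 8 chosen genes; others named were chosen after their values were seen, and some genes that the rule names are not reported here. Clusters used scanpy 1.11.5 (2000 variable genes, 30 components, 15 neighbours, Leiden resolution 0.5) and doublet scores its scrublet method. The alternatives, TMM scaling with edgeR 4.0.16 among them, are described in the closing section. The calls and ratio intervals were tried on simulated counts summed over cells, with changes only in genes at 50 CPM or more in reference cells. Differences between cells were not simulated. That setting covers neither UMIs held by few cells nor higher genes below 50 CPM in reference cells.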

Additional observations from a re-analysis of the deposited data

Results flagged for a closer look

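A signal lay outside the compared cells. Of 98 IRF8KO neutrophil-like cells, left out of all comparisons, 2 carried 4 or more of the 8 chosen genes (2.04%, exact binomial interval 0.248 to 7.18), while the WT library had no neutrophil-like cell to set beside them. At the depth of 2000 UMIs, 0 of 97 did.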

How the results depend on the processing

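No paired analysis was possible because each group is 1 library, and there was no replicate to leave out. Alternatives that set the minimum on reference cells alone or leave out the cluster of 40 cells or a chemokine's highest cell were added after seeing the data. A value counts as moved when it left the counting interval, and a count when it changed by over 1.5 times. No log2 ratio of at least 1 in size changed sign. Some smaller ones did: the MHC class II sum, 0.35, was -1.50 without the 5% deepest cells, and the homeostatic sum, -0.08, was 0.0386 at 4000 UMIs. The cause of each shift was not tested.

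The share of interferon-signature cells, 6.21%, was 9.47% at 3 or more of the 8 genes, 4.17% at 5 or more, 3.57% on thinned counts, 5.04% without the 5% deepest cells and 5.54% without the cluster of 40. The 78 higher genes became 123 with the rule on thinned counts (77 of the 78 among them), 48 without thinning, 139 at a minimum of 20 CPM, 16 at 200 CPM and 28 at 50 CPM in reference cells alone, and stayed between 53 and 102 elsewhere. The 0 lower genes became 5 at 5 or more genes, 12 with the rule on thinned counts, 22 with the reference weighted to the cluster makeup, 8 at 1000 UMIs, 1 with mitochondrial and ribosomal protein genes left out of totals, 26 at a minimum of 20 CPM, 3 under the stricter cell filter, 3 without the deepest cells, 2 at 50 CPM in reference cells alone and 1 without the cluster of 40.

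The antiviral effector sum, 1.50, was 1.32 at 3 or more genes, 1.67 at 5 or more, 1.82 on thinned counts, 1.59 against cells with 0 of the 8, 1.40 against all other cells, 1.43 with the cluster-weighted reference, 1.18 at 4000 UMIs, 1.12 without thinning, 1.68 without the deepest cells and 1.29 without the cluster of 40. The homeostatic sum, -0.08, was -0.10 at 5 or more genes, -0.0457 on thinned counts, -0.00754 with the depth-weighted reference, -0.0426 with the cluster-weighted one, 0.0386 at 4000 UMIs, -0.11 without thinning, -0.10 under the stricter filter and -0.0451 without the deepest cells. The border macrophage sum, -0.04, was -0.18 on thinned counts, -0.14 with the depth-weighted reference, -0.15 at 4000 UMIs and -0.11 without the deepest cells. Of the other list sums that had a ratio, 84 values moved and 391 did not; of named genes, 127 and 538.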

Other observations

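Of the 78 higher genes, 18 were on no list. Beside Ifi47, Gm4951 and Trafd1 they included Trim30b (84.4 CPM in interferon-signature and 16.1 CPM in reference cells, a log2 ratio of 2.39), the lectin-like ligand gene Clec2d (142 and 52.4 CPM, 1.44), the RNA helicase gene Znfx1 (137 and 51.2 CPM, 1.42), Nampt, the rate-limiting enzyme of NAD salvage (84.4 and 33.1 CPM, 1.35), the non-coding gene AW112010 (104 and 44.4 CPM, 1.23) and Epsti1 (126 and 59.0 CPM, 1.09). Ccdc86, Trim12a, Cd52, Pcgf5, Tmem106a, Ogfr, Rnf114, Lrch3 and Nectin4 lay between 1.02 and 1.36.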
